A study of Mus musculus with 8 samples.

Results

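Hprt and 9 further genes of purine salvage and synthesis (Aprt, Adk, Ada, Impdh1, Impdh2, Gmps, Ppat, Gart and Paics) were followed across the arrays of this series. The members were taken by gene name from the scanner files and comprised 16 of the 39429 probes of 60 bases present on both array designs used. Of the 10 genes, 5 had 1 probe and 5 had several. All 16 probes were well above background on all 8 arrays, so every member entered every test, and all 16 had the same letters on both designs.

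The study sorted GFP-positive cells from kidney rudiments of E11.5 mouse embryos of the NMRI strain and measured their RNA on 8 one-colour arrays. The 3 control samples carried 1 GFP allele of Tbx18, Tbx18(GFP/+), and so 1 disrupted copy of this gene. The 3 Tbx18_null samples were Tbx18(GFP/GFP). The 2 Tbx18VP16 samples were Tbx18(cre/+);Hprt(CAG:Tbx18VP16-GFP): they carried a Cre allele of Tbx18 in place of the GFP allele and a construct named for the Hprt locus, the CAG promoter, Tbx18 fused to the VP16 activation domain, and GFP. No group was wild type for Tbx18. GFP thus came from the Tbx18 allele in control and Tbx18_null and from the construct at Hprt in Tbx18VP16, so the sorted cells need not be the same set. The cells were pooled over sexes, about 100000 for every sample, and 20 ng of RNA was used for each array except 10 ng for replicate 3 of control and of Tbx18_null. The Tbx18VP16 arrays were of another design on a slide of their own, so genotype, array design, slide and scan cannot be told apart in any comparison with them. Tbx18, the T-box factor gene the alleles are named for, was at levels (defined with the Hprt values) of -0.02 to 1.20 in control, -2.40 to -1.34 in Tbx18_null and 1.06 to 1.34 in Tbx18VP16. Its difference of Tbx18_null against control was -2.77 ± 0.44 (SE, limma adjusted p 0.118) and of Tbx18VP16 against Tbx18_null 3.23 ± 0.45 (adjusted p 0.0141). Whether the Tbx18 probe lies in a part that the GFP allele removes, or in the Tbx18 part of the construct, is not given in the labels. The probe is thus a limited check of the labels, and its level in Tbx18VP16 cannot be assigned to the Tbx18 locus alone. Among the null arrays, replicate 3 stood apart by higher signals of erythroid, endothelial and ureteric epithelial markers. The labels do not say which pools came from separate litters, so p-values measure the spread between these samples.

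Purine nucleotides are made along 2 routes that meet at inosine monophosphate (IMP). Synthesis from small precursors builds the ring step by step on phosphoribosyl pyrophosphate, and salvage attaches ready-made bases to the same sugar phosphate. HPRT salvages hypoxanthine and guanine, and the mouse Hprt locus on the X chromosome is widely used as a site for placing transgenes, because the gene is broadly expressed and can be selected for and against in culture. Hprt is also a common reference gene for normalising RNA measurements.

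The sequences shown first are those the main results rest on. The Hprt signal comes from 1 probe, at chrX:50374757-50374816 on the + strand (mm9, as the files give it), which starts at base 1268 of the transcript named there. The first 30 of its 60 bases are
Hprt probe: gtgttggctgtattttcccactttcagtaa
The 250 bases before the Hprt start are shown because the construct is named for this locus. They lie at chrX:52987828-52988077 on the + strand (RefSeq, GRCm38.p6), and capitals mark GC boxes, GGGCGG or its reverse complement.
Hprt promoter: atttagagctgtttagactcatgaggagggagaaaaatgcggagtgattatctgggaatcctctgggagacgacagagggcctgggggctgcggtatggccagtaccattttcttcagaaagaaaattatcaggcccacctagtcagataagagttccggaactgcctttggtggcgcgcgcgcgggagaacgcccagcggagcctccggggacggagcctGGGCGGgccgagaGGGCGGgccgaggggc
This window held 2 GC boxes and no TATAAA or CCAAT on either strand. All 10 members had such a window and all 10 held at least 1 GC box, against 32.7% of all 32851 windows of the same length. CCAAT was found in 4 members (33.8% of all windows), TATAAA in 1, Gmps (12.4%), and the E-box CACGTG in 2, Impdh2 and Paics (6.02%). A match describes letters and is not a measured binding site. The site and orientation of the construct within Hprt are not given in the sources used here, so it is not known whether the probe or this window lies in a part of Hprt that the construct replaces.

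Hprt was the member that stood apart. Levels are log2 signals minus the 75th percentile of each array, so a level of 0 is the 75th percentile of the probes on that array. Hprt was at 2.74, 1.93 and 1.99 in control replicates 1, 2 and 3, at 2.82, 2.40 and 2.87 in Tbx18_null, and at -1.94 and -1.57 in Tbx18VP16. Both Tbx18VP16 arrays were far below the lowest of the other 6, and the probe remained well above background on both. The mean was -1.75 ± 0.27 (SD, n = 2) in Tbx18VP16, 2.22 ± 0.45 (n = 3) in control and 2.70 ± 0.26 (n = 3) in Tbx18_null.

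Hprt fell by 3.97 on the log2 scale in Tbx18VP16 against control (SE 0.32, 95% interval -4.71 to -3.24), which is 15.7-fold lower, with an adjusted p of 0.000945 by limma with Benjamini-Hochberg adjustment over 20599 genes. It was the only member called (adjusted p under 0.05) among 10, where 5.32% of all genes were called in either direction and 3.28% were called lower. The 420 genes called higher and 675 called lower became 565 and 564 with the authors' deposited table and 270 and 262 with arrays scaled on reference genes. Hprt ranked 31 by p among all genes. Against Tbx18_null, Hprt fell by 4.45 (SE 0.32, interval -5.18 to -3.72), 21.9-fold, with a limma adjusted p of 0.00159 and rank 6. It was again the only member called, against 3.66% of all genes and 2.49% called lower (241 higher and 512 lower, or 354 and 415 with quantile normalisation and 391 and 395 with the authors' deposited table). The first of these calls held under all 21 alternative settings (differences of -4.16 to -3.71), though some, such as probe choice, could not move a 1-probe difference. The second was lost when either Tbx18VP16 array was left out, with a difference of -4.26 and an adjusted p of 0.0534 without replicate 1, and -4.64 and 0.0604 without replicate 2. In the authors' deposited table the Hprt probe was at 8637, 6223 and 5931 in control, at 9066, 8314 and 11650 in Tbx18_null and at 416 and 545 in Tbx18VP16. Because the samples are sorted pools, fewer cells with Hprt RNA and less of it per cell cannot be told apart.

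The Tbx18_null against control difference of Hprt was 0.48 (SE 0.30, 95% interval -0.24 to 1.19), with a limma adjusted p of 1. The null minus control differences of the same-numbered pairs were 0.08, 0.47 and 0.88. All 3 were above 0, but the control and null arrays overlapped. With the replicate number as a block the limma adjusted p was 0.375.

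**Figure D1:**
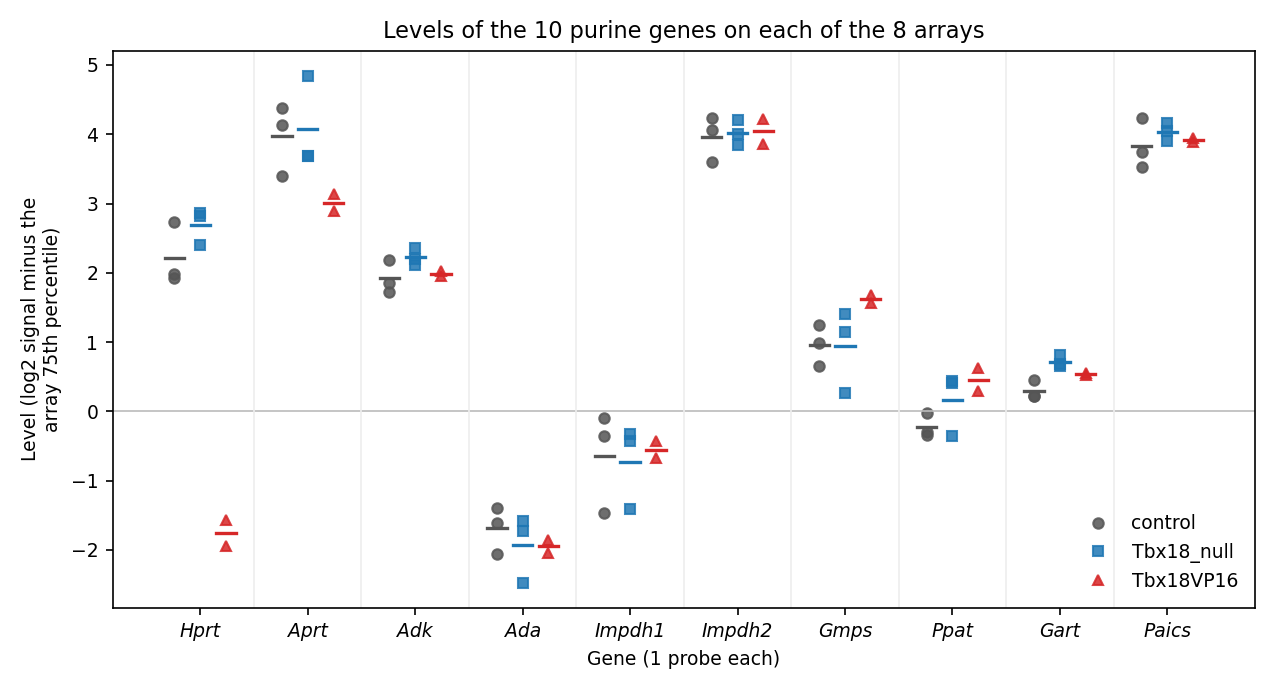
Level (log2 signal minus the array 75th percentile) of each of the 10 genes, 1 probe each, on every array, with points for arrays and bars for group means. Hprt in the 2 Tbx18VP16 samples, at -1.94 and -1.57, lies below its 6 other values of 1.93 to 2.87, while the group means of each of the other 9 genes lie closer together.

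Hprt is one of 15 commonly used reference genes on a list made for this comparison. The other 14 had differences from -0.43 to 0.49 between Tbx18VP16 and control, with a median of -0.08 and none called (lowest limma adjusted p 0.248). Gapdh, the glycolytic enzyme, was at 0.01 ± 0.25 (SE), and Tbp, the TATA-binding protein, at 0.46 ± 0.22. Scaling each array on these 14 genes gave a Hprt difference of -3.99 and kept the call.

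Hprt is X-linked and the pools held both sexes, so sex-linked transcripts were read beside it. Xist, which coats the inactive X chromosome in female cells, had mean levels of -0.80 in control, -0.40 in Tbx18_null and -1.31 in Tbx18VP16. Eif2s3y, on the Y chromosome, was at -0.56, -0.41 and 0.61 in the same order, a difference of 1.17 between Tbx18VP16 and control with a limma adjusted p of 0.0533. Ddx3y, also Y-linked, was at -0.71, -0.56 and -0.27. The part of sex composition in the Hprt difference was not tested.

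The genes around Hprt were read on the same arrays. Of 16 genes with a tested probe within 1000 kb of the Hprt probe, 4 were called between Tbx18VP16 and control, 2 between Tbx18VP16 and Tbx18_null, and, of 15, none between Tbx18_null and control by limma. With the replicate number as a block, 1 of these 15, Ccdc160, was called between Tbx18_null and control, where 0.934% of all genes were. Over all genes tested 5.32%, 3.66% and 0% were called in these comparisons. Phf6, which encodes a chromatin-associated protein and lies at -65 kb, on the upstream side of Hprt, was at a difference of -0.02 ± 0.28 (SE) between Tbx18VP16 and control. On the other side, C430049B03Rik, 35 kb away, was called lower, with a difference of -1.06 ± 0.24 and an adjusted p of 0.0433. Its levels were -1.92, -1.75 and -1.94 in control, -2.21, -2.14 and -2.14 in Tbx18_null, and -3.19 and -2.67 in Tbx18VP16. The groups do not overlap, but that call held under only 7 of 21 alternatives. Plac1, a placenta-enriched gene 48 kb away, had a difference of -1.63 ± 0.60 that was not called (adjusted p 0.158).

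Ccdc160, a coiled-coil protein gene at -222 kb, had the smallest p of the neighbours, and it was higher. Its levels were -3.22, -3.17 and -2.86 in control, -0.08, -0.52 and -0.59 in Tbx18_null, and -0.27 and -0.21 in Tbx18VP16. Both mutant groups lay above all controls, and they overlapped each other. It rose by 2.84 ± 0.25 (SE) in Tbx18VP16 against control, with a limma adjusted p of 0.00151 that held under all 21 alternatives. The difference of Tbx18_null against control was 2.69 ± 0.25, with a limma adjusted p of 0.065. The pairs of the same number differed by 3.14, 2.64 and 2.27, and the difference was called in the fit with these pairs as blocks (SE 0.20, limma adjusted p 0.0291). Tbx18VP16 against Tbx18_null was 0.15 ± 0.25. These comparisons share the control samples.

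Zfp36l3, which encodes an RNA-binding zinc finger protein and lies 702 kb away, rose by 1.39 ± 0.29 against control (limma adjusted p 0.0347), a call that held under 11 of 21 alternatives. Etd, 422 kb away, was called lower against control, by an estimated 1.27-fold, and against Tbx18_null, by an estimated 1.1-fold (limma adjusted p 0.019 and 0.0373). Its probe was well above background on only 3 of 8 arrays, which were 1 control array and 2 Tbx18_null arrays. As both sides held dim arrays, these folds are not firm lower bounds. These calls held under 14 of 19 and 9 of 20 alternatives. Another dim probe, named by the transcript ENSMUST00000138201 and 642 kb away, was well above background on 2 Tbx18_null arrays alone. It was called lower in Tbx18VP16 against Tbx18_null (limma adjusted p 0.0345), by an estimated 1.33-fold that is likewise not a firm bound. That call held under 10 of 18 alternatives. The remaining genes of the window, Gpc4, Gpc3, A630012P03Rik, Fam122b, Mospd1, Rtl8c, Rtl8a, 4933416I08Rik and Ct55, had differences from -0.64 to 1.05 against control on the tested probe and were not called. Some untested probes well above background on all 8 arrays read otherwise. For A630012P03Rik, such a probe had means of -5.13 in Tbx18VP16 and -4.00 in control, where the tested probe had -2.64 and -3.36. For Rtl8c, such probes had -4.90 and -3.80, and -0.25 and 0.59, where the tested probe had 4.08 and 4.24.

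**Figure D2:**
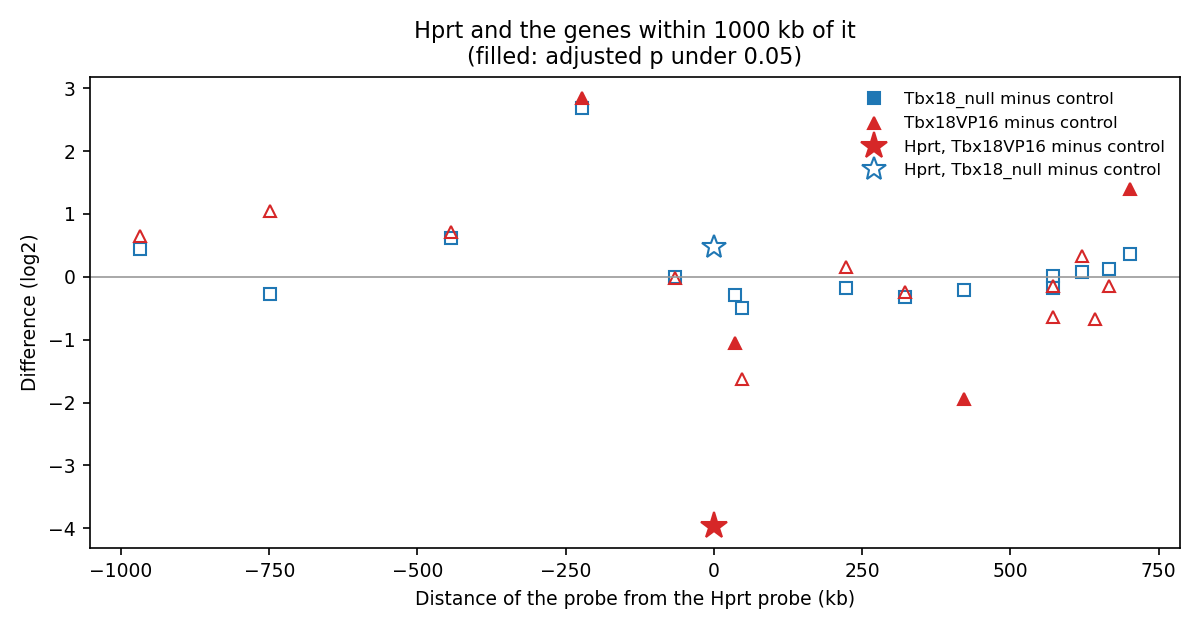
Difference on the log2 scale against distance of the probe from the Hprt probe in kb, for Hprt (stars) and the tested genes within 1000 kb, with squares for Tbx18_null minus control and triangles for Tbx18VP16 minus control; filled symbols have an adjusted p under 0.05. Hprt at -3.97 is the lowest point, the gene at -65 kb is at -0.02, and the gene at -222 kb lies at 2.84 and 2.69 in the comparisons of Tbx18VP16 and Tbx18_null.

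Of the other salvage enzymes, none was called. Aprt, which salvages adenine, was at 4.38, 3.40 and 4.13 in control, at 4.84, 3.69 and 3.68 in Tbx18_null, and at 2.89 and 3.14 in Tbx18VP16. Both Tbx18VP16 arrays lay below the other 6, by a margin smaller than the spread within control. The difference was -0.96 ± 0.43 (SE, 95% interval -1.95 to 0.04, limma adjusted p 0.236) against control and -1.05 ± 0.43 (interval -2.05 to -0.06, adjusted p 0.205) against Tbx18_null. Arrays that do not overlap were common here: 30.3% of all genes were lower on both Tbx18VP16 arrays than on every control array and 17.4% were higher, against 2 and 3 of the 10 members.

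Adk phosphorylates adenosine to AMP. Its brighter probe was at 2.18, 1.72 and 1.86 in control, at 2.20, 2.12 and 2.36 in Tbx18_null, and at 1.96 and 2.02 in Tbx18VP16, which lay within the control range and below all null arrays. The second probe, which the files place on another Adk transcript, was at 1.20, 0.81 and 0.84, at 1.22, 1.16 and 1.11, and at 0.67 and 0.66. On that probe both Tbx18VP16 arrays were below all others, and the 2 probes differed in sign against control, at 0.08 ± 0.23 and -0.28 ± 0.22 (SE; limma adjusted p over all probes 0.879 and 0.505).

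Ada deaminates adenosine to inosine. Its levels were -1.39, -2.06 and -1.61 in control, -1.58, -2.47 and -1.73 in Tbx18_null, and -2.04 and -1.86 in Tbx18VP16. All 3 groups overlapped, and no difference exceeded 0.26 in size in any comparison. Among arrays of the same number, replicate 2 was the lowest in both control and Tbx18_null.

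The branch from IMP to GMP is catalysed by the IMP dehydrogenases, Impdh1 and Impdh2, and by GMP synthetase, Gmps. Impdh1 was at -1.47, -0.35 and -0.10 in control, at -1.41, -0.33 and -0.43 in Tbx18_null, and at -0.68 and -0.43 in Tbx18VP16. Replicate 1 of control and of Tbx18_null was the lowest array of its group by a wide margin, and the SD of 0.73 within control was larger than any difference between group means. The largest difference of Impdh1 was 0.16 ± 0.47 (SE), for Tbx18VP16 against Tbx18_null.

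Impdh2 was read by 2 probes that overlap, and their first 30 bases are shown because the 2 probes share most of their letters. They start 6 bases apart, share 54 bases, and capitals mark the shared part of what is printed. They lie at chr9:108467836-108467895 and chr9:108467842-108467901 on the + strand (mm9).
Impdh2 first probe: aaacggCTTTTCTGAAAACAGATCCAGTAT
Impdh2 second probe: CTTTTCTGAAAACAGATCCAGTATatgcct
The first was at 4.06, 3.60 and 4.24 in control, at 4.21, 3.85 and 4.01 in Tbx18_null, and at 3.86 and 4.22 in Tbx18VP16. The second was at 2.42, 2.69 and 3.41, at 2.62, 2.99 and 3.13, and at 2.94 and 3.34. All groups overlapped on both. Against control the differences in Tbx18VP16 were 0.08 ± 0.27 and 0.30 ± 0.34 (SE). As they share most of their bases, these 2 probes are not independent readings.

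Gmps had 3 probes that did not run together. The brightest was at 0.66, 1.25 and 0.98 in control, at 0.27, 1.15 and 1.41 in Tbx18_null, and at 1.56 and 1.68 in Tbx18VP16, where both arrays were above all others. The difference against control was 0.66 ± 0.36 (SE, 95% interval -0.17 to 1.49, limma adjusted p 0.323). The probe starting at base 2341 of the transcript gave 0.42 ± 0.41 and the one starting at base 4380 gave -0.36 ± 0.44. Their levels in Tbx18VP16 were -3.23 and -3.40 for the first, within the range of -4.55 to -3.17 of the other 6 arrays, and -1.32 and -1.99 for the second, within -2.64 to -0.88.

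Synthesis of the ring begins with Ppat, the amidotransferase that commits phosphoribosyl pyrophosphate to purines, and goes on through the multifunctional enzymes encoded by Gart and Paics. The Ppat probe of higher signal was at -0.34, -0.02 and -0.30 in control, at -0.35, 0.41 and 0.44 in Tbx18_null, and at 0.62 and 0.30 in Tbx18VP16. Tbx18VP16 lay above all controls but among the null arrays. The second Ppat probe was at -1.81, -1.61 and -1.68, at -1.89, -1.26 and -1.05, and at -0.75 and -0.89, with both Tbx18VP16 arrays above the other 6. Against control the differences were 0.68 ± 0.30 (SE, interval -0.02 to 1.38) and 0.88 ± 0.29, with limma adjusted p of 0.229 over genes for the first and 0.139 over all probes for the second. Neither passed the threshold.

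Ppat and Paics lie on opposite strands with starts 276 bases apart (GRCm38.p6), and the start of each lies within the transcribed side of the other, so that their first bases overlap. The 250 bases before the Paics start, shown for this neighbouring pair, are thus on the transcribed side of the Ppat start. They lie at chr5:76951052-76951301 on the + strand, with the E-box in capitals.
Paics promoter: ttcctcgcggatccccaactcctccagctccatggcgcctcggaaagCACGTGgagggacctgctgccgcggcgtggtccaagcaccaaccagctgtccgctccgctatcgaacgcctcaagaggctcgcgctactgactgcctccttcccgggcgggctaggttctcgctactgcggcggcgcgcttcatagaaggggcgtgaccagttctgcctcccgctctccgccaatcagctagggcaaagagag
Paics was at 4.24, 3.74 and 3.53 in control, at 4.16, 3.91 and 4.04 in Tbx18_null, and at 3.94 and 3.89 in Tbx18VP16. The groups overlapped, and the difference of Tbx18VP16 against control was 0.08 ± 0.26 (SE, interval -0.53 to 0.68). The window before Ppat held no CACGTG and 2 GC boxes.

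Gart was the member with the smallest spread among control and null arrays, with a pooled SD of 0.12 against a median of 0.41 over all genes tested. It was at 0.22, 0.46 and 0.22 in control, at 0.65, 0.82 and 0.68 in Tbx18_null, and at 0.53 and 0.56 in Tbx18VP16. Every null array was above every control array, and both Tbx18VP16 arrays lay between the other groups. The null against control difference was 0.42 ± 0.22 (SE, 95% interval -0.10 to 0.93, limma adjusted p 1), and pairs of the same number differed by 0.43, 0.36 and 0.46. It was the only member whose null and control arrays did not overlap, where 4.16% of all genes were higher in this way. The second Gart probe, which the files place on another Gart transcript, was at -1.56 to -0.41 in control, -1.26 to 0.01 in Tbx18_null and -0.35 to 0.01 in Tbx18VP16. On it both Tbx18VP16 arrays lay above all controls, with a difference of 0.82 ± 0.45 (SE) and a limma adjusted p of 0.338 over all probes, and the null arrays overlapped both other groups.

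Across all members, Tbx18_null and control differed in no called gene. By limma none of 19710 genes passed (0% called), with 951 at an unadjusted p under 0.05, and all 10 members had an adjusted p of 1. With the replicate number as a block, 0.934% of all genes were called and no member was, the lowest member value being 0.226 for Gart. The 10 differences ran from -0.24 to 0.48 with a median of 0.15, and the median of all genes was 0.01. For the 9 members other than Hprt, differences of Tbx18VP16 against control ran from -0.96 to 0.68 with a median of 0.08, 7 above 0 and 2 below, where all genes had a median of -0.14 and 40.8% were above 0. Against Tbx18_null, 4 of these 9 were above 0 and 5 below, with a median of -0.02, where all genes had a median of -0.15 and 40% above 0. The 95% intervals of the 9 against control reached as low as -1.95 and as high as 1.49.

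**Figure D3:**
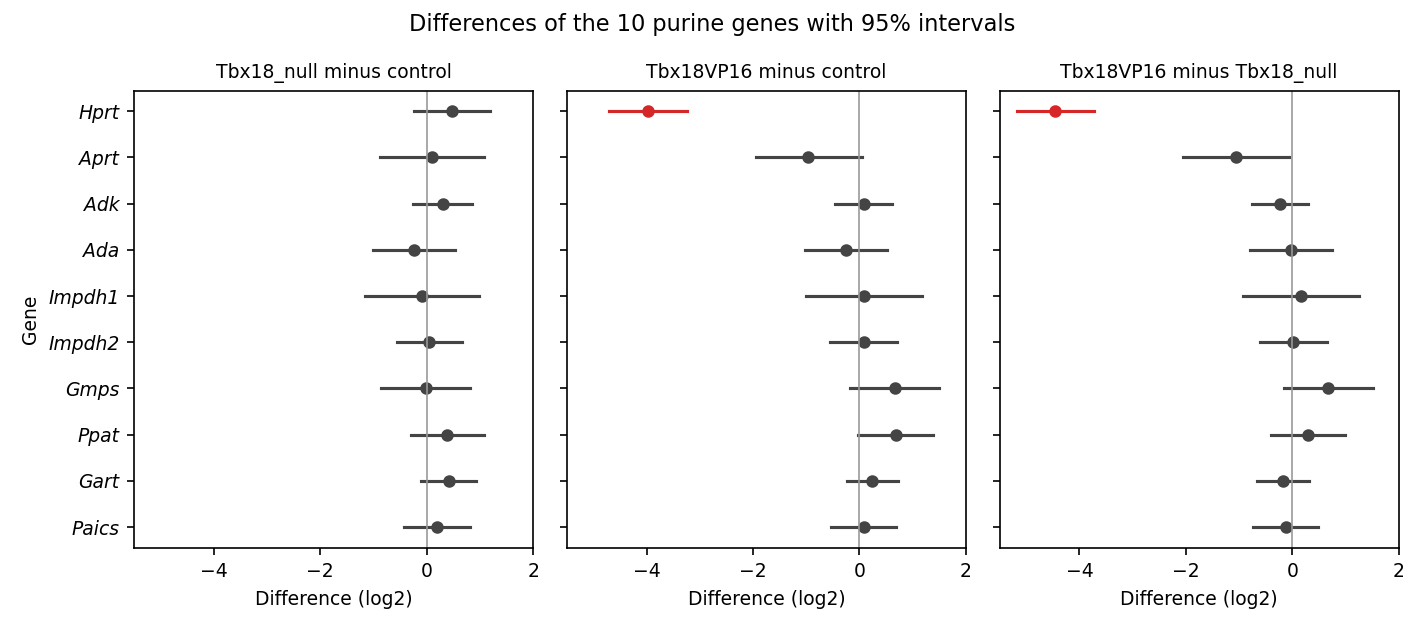
Differences on the log2 scale (points) with 95% intervals (lines) of the 10 genes in the 3 comparisons, with called genes in red. Hprt, at -3.97 and -4.45 in the comparisons with Tbx18VP16, is the only one called, and the intervals of the other 9 genes include 0 except that of Aprt against Tbx18_null, which ends at -0.06 and has an adjusted p of 0.205.

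The other genes, of purine metabolism, nucleoside transport and adenosine receptors, came from a list of 64. Of these, 52 were tested in the comparisons with Tbx18VP16. None was called higher and 2 were called lower in each, and for Tbx18_null against control none of 51 was called by limma. The share called lower was thus near that of all genes tested, 3.28% and 2.49%. The median difference of Tbx18VP16 against control was -0.25, with 20 above 0 and 32 below, where all genes had a median of -0.14 and 40.8% above 0. Of the enzymes between the members, Pfas, which acts between Gart's steps, was at 0.48, Adsl, which acts in both synthesis and the AMP branch, at 0.24, and Atic, which makes IMP, at 0.03 on the log2 scale. Adss, the first enzyme from IMP to AMP, was at 0.61 (limma adjusted p 0.191), and Pnp, which releases bases from nucleosides for salvage, at -0.57 (adjusted p 0.316).

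The called genes were a nucleoside transporter, from a list not limited to purines, and an enzyme of breakdown. Slc28a1, a sodium-coupled nucleoside transporter, was 2.63-fold lower in Tbx18VP16 than in control (difference -1.40 ± 0.29 SE, limma adjusted p 0.034) and 2.76-fold lower than in Tbx18_null (adjusted p 0.0375), calls that held under 14 and 13 of 21 alternatives. Urad, an enzyme that follows urate oxidation, was lower by at least 1.51-fold and by an estimated 1.47-fold (limma adjusted p 0.0375 and 0.0496). Its probe was well above background on no Tbx18VP16 array and on only 2 Tbx18_null arrays, so the second fold is not a firm bound. The Urad calls held under 10 and 6 of 20 alternatives. Lists beside the pathway gave 1 more call in each comparison: of 16 pyrimidine genes and 16 genes of one-carbon supply none was called, and of 10 genes of the MYC network, which regulates nucleotide synthesis in many cells, Mxd3 fell by 1.56 ± 0.25 (SE) against control (limma adjusted p 0.0157) and by 1.17 ± 0.25 against Tbx18_null (adjusted p 0.0484). The second of these calls held under 8 of 21 alternatives. Of 20 tested proliferation genes none was called in any comparison, and their summed signal was 224 to 383 times the array's 75th percentile in control, 223 to 391 in Tbx18_null and 255 to 277 in Tbx18VP16.

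**Figure D4:**
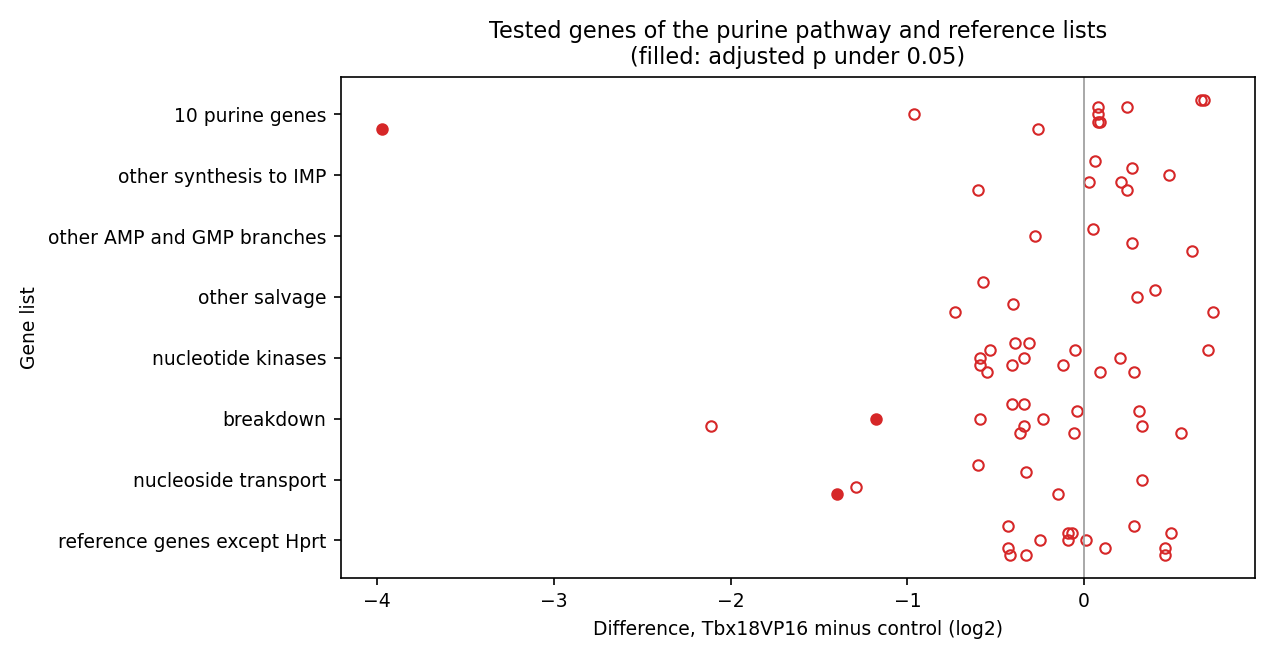
Difference of Tbx18VP16 minus control on the log2 scale for each tested gene, with filled points for called genes. Shown are the 10 purine genes, 6 lists of other genes of purine metabolism or nucleoside transport, and 14 reference genes. Hprt, at -3.97, is the lowest point, Slc28a1 at -1.40 and Urad are the only others filled, and the reference genes lie between -0.43 and 0.49.

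Markers of the labelled and of other cell types were read on the same arrays. Summed signals of 13 ureteric mesenchyme markers were 142 to 192 times the 75th percentile in control, 124 to 178 in Tbx18_null and 127 to 145 in Tbx18VP16. Sums weigh the brightest genes most and this list holds Tbx18 itself, so they do not measure the share of labelled cells. The sum of 9 megakaryocyte and platelet markers was 0.206 to 0.251 in control, 0.237 to 1.76 in Tbx18_null and 4.65 to 9.12 in Tbx18VP16, where 8 of 9 were called higher than in control. Gp6, Gp1ba, Ppbp, Gp9 and Treml1, defining platelet genes, were well above background on both Tbx18VP16 arrays and on no control array. Sums of erythroid markers ran from 7.48 to 31.4, 6.48 to 544 and 4 to 9.27, and of endothelial markers from 1.6 to 2.64, 2.42 to 11.9 and 0.951 to 1.05, in the same order of groups. Replicate 3 of Tbx18_null had the highest sums of erythroid (544, against 6.48 and 26.7 on the other null arrays), endothelial (11.9, against 2.42 and 2.88) and ureteric epithelial markers (14.2, against 3.42 and 6.31). Without that array Hprt differed by 0.39 against control in Tbx18_null and by -4.36 between Tbx18VP16 and Tbx18_null, which was still called. Sums of 12 nephron progenitor markers were 41.3 to 53.4 in control, 68.4 to 74.2 in Tbx18_null and 72.4 to 76.7 in Tbx18VP16. Against control, 10 of them were higher in Tbx18VP16 and 2 lower, with 2 called higher. Against Tbx18_null, 6 were higher and 6 lower, so similar sums do not mean that the same markers were raised. Sums of macrophage and leukocyte markers were 1.25 to 1.48, 1.61 to 2.88 and 1.31 to 1.9 in the same order of groups. Of 9 tested, 5 lay above all controls on both Tbx18VP16 arrays and 2 below all controls, where 17.4% and 30.3% of all genes did. Of these markers 1 was called higher and none lower. The called marker was well above background on only 1 Tbx18VP16 array and on no control array. Some others that lay higher were also well above background on no control array, while both that lay lower were so on every array. The part of these cells in the Hprt and Slc28a1 differences was not tested.

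As a description of likeness, Hprt was compared over the 8 arrays with 15243 genes with ordinary symbols. The highest Pearson correlations were those of Klf14 (0.992), Dhdds (0.984), Rnf212 (0.982), Vmn1r168 (0.981) and Tmem97 (0.981). The Hprt values form 2 clusters, 6 arrays spanning 0.94 and 2 lying lower, so these correlations mainly record a gene being lower on the same 2 arrays, which share a design and slide. Altogether 459 genes had a correlation over 0.9, and none of the 5 was among the top 5 over the 6 control and null arrays. Klf14, a zinc finger transcription factor gene, was at least 5.59-fold lower in Tbx18VP16 than in control, as its probe was well above background on no Tbx18VP16 array. Dhdds, which makes dolichol precursors, was at mean levels of 0.16, 0.18 and -0.64 in control, Tbx18_null and Tbx18VP16.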

How the data were processed

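Spot intensity values in the deposited scanner files had been background-corrected by Agilent Feature Extraction 10.7.3.1, per the file headers, and the table the authors deposited beside them gives linear intensity values that were normalised between arrays down to a floor of 10, by a method not stated. The 4 spots of a probe were averaged without control spots and without outlier spots, which made up 1.86% to 3.14%. To obtain a level, the 75th percentile of the 39429 shared probes (a signal of 976 to 2129) was subtracted on the log2 scale. Probes well above background on at least 3 of 6 arrays (Tbx18_null against control) or 2 of 8 were tested, 1 probe per gene, the one with the highest mean; all probes of the members were also tested each on its own. Tests were two-sided, with lmFit and eBayes of limma 3.58.1 in R 4.3.3, on the 6 control and null arrays or on all 8 arrays with 3 group means, and p-values were adjusted by Benjamini-Hochberg over all genes with a threshold of 0.05. The number of arrays limits the precision. Where no array of a group was well above background, the fold is a lower bound, for which each dim array took at least the lowest signal it had well above background. Where the other group also held dim arrays, that fold is an estimate and not a firm bound.

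Same-numbered control and null samples deviated together across genes (correlations of 0.827, 0.708 and 0.429, against -0.753 to 0.321 for unlike numbers). Deviations from a group mean cancel within the group, so high values for like numbers partly lower those for unlike numbers by construction. Pair 3, on a slide of its own, was at 0.429, near the highest unlike value. The numbers were taken as pairs, and blocked values are given where they matter. The fits were tested on simulated data in which 50 genes were changed by each of several folds. For Tbx18VP16 against control, 0 of 50 were called at 2-fold, 25 at 4-fold and 42 at 16-fold. The counts were 6, 27 and 43 for Tbx18VP16 against Tbx18_null, and 2, 26 and 45 for Tbx18_null against control. Changes of 2-fold were thus rarely called, so a gene not called may still differ by that much. Probe coordinates are those of the files (mm9); promoters are RefSeq's (GRCm38.p6).

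Named were all members, called genes of the pathway and comparison lists (at most 4 per list), the enzymes between the members, the 5 genes most like Hprt, every tested gene within 1000 kb of Hprt, and Tbx18. The reference, sex-linked and marker genes beyond that were chosen after their values were seen. The result of 1 marker gene is not reported here. The members and lists were chosen with earlier results of these data known.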

Additional observations from a re-analysis of the deposited data

How the results depend on the processing

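Each comparison was refitted under 21 alternatives of scaling, background, filter, probe choice, samples in the fit, spread, outlier spots, arrays left out and blocks. Scaling on reference genes was chosen after seeing the data. The 75th percentile over all non-control probes equalled that of the shared probes, so that alternative repeated the main fit. Hprt has 1 probe, so the choice of probe could not move its difference. The call of Hprt for Tbx18VP16 against control held under all 21 (adjusted p 0.000287 to 0.033), also with the replicate block, and that against Tbx18_null under 19. Leaving out 1 array in turn gave Hprt differences of -4.64 to -4.26 against Tbx18_null, and the number of called members ranged from 0 to 1, being 0 without either Tbx18VP16 array. No other member was called under any alternative, the lowest adjusted p being 0.0986. Differences near 0 changed sign. For Tbx18_null against control, Gmps became 0.01 with quantile normalisation and with the authors' deposited table and 0.14 scaled on reference genes, and Impdh1 became 0.08 scaled on reference genes and 0.05 on the first slide alone. With 1 array left out, Impdh1 ranged from -0.49 to 0.27, Gmps from -0.25 to 0.32, Aprt from -0.28 to 0.31, Impdh2 from -0.13 to 0.19 and Ada from -0.42 to 0.03. For Tbx18VP16 against control, Adk became -0.0049 with normexp and -0.10 with the mean of all probes, and leave-one-out values were -0.02 to 0.20 for Adk, -0.33 to 0.36 for Impdh1, -0.11 to 0.26 for Impdh2 and -0.08 to 0.28 for Paics. For Tbx18VP16 against Tbx18_null, Ada became 0.08 and Paics 0.07 with quantile normalisation, 0.08 and 0.09 with the authors' deposited table, Ada 0.05 with the replicate block, Gart 0.14 with the mean of all probes, and Impdh1 -0.0049 and Impdh2 -0.15 scaled on reference genes; leave-one-out values were -0.29 to 0.15 for Ada, -0.18 to 0.36 for Impdh1 and -0.16 to 0.20 for Impdh2. The causes were not tested.

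Narrowing the window around Hprt to 250 kb left 2 called genes against control and 0 against Tbx18_null. Of the 5 genes most like Hprt, 0 were among the top 5 over control and null arrays alone. The 1095 genes called for Tbx18VP16 against control became 625 with normexp, 642 where all arrays had to be well above background, 532 scaled on reference genes and 39 to 1918 with 1 array left out (39 and 45 without a Tbx18VP16 array, 298 without control 2, 687 without null 2, 1918 without null 1). The 753 against Tbx18_null became 404, 462, 260 and 0 to 816 (0 and 6 without a Tbx18VP16 array). The 0 for Tbx18_null against control became 62 in the fit of all 8 arrays, 14 scaled on reference genes, 6 with the slide as a block and up to 3 with 1 array left out. The replicate block gave 3640 and 3285 calls in the comparisons with Tbx18VP16, although deviations of its arrays did not pair with control (-0.101) or Tbx18_null (-0.0262) of the same number. Quantile normalisation moved the median difference of all genes for Tbx18VP16 against control from -0.14 to -0.02. A single array of a group was assumed to vary like the others.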
